A study of Homo sapiens with 2 samples.

Results

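Interferon-stimulated genes and the sensors of viral nucleic acid were examined in HGC-27 cells, an established human gastric adenocarcinoma line, after lentiviral knockdown of DDX5. The set is a list of 54 symbols of sensors, signalling factors and effectors, matched by gene name. The rule uses no measured value, but the list was drawn up with earlier results of these data known. Of these, 50 had a row among the 16021 genes and gene models of the series. The other 4 (IFIH1, CGAS, IFI16 and XAF1) are not analysed here. Of the 50, 30 had a mean of 1 FPKM or more over the libraries. FPKM expresses the fragments of a gene relative to the length of its transcript and to all fragments of the library, so levels of different genes can be set side by side.

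The series holds 2 libraries, the control library from HGC-27 cells carrying a non-targeting shRNA and the knockdown library from HGC-27 cells carrying an shRNA against DDX5, a DEAD-box RNA helicase. Both groups were transduced with lentivirus, exposed to puromycin from 48 h and collected after 1 week of selection, so the control carries the viral vector and the selection as well. No cells without virus are among the samples, and neither the number of shRNA sequences nor whether the cells are a pool or a clone is given in the sources used here. With 1 library per group no p-value, SE or SD exists, and every difference below is between these 2 libraries, not between conditions.

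Cells recognise viral RNA through RIG-I (gene symbol RIGI), MDA5 and TLR3, and cytosolic DNA through cGAS and STING. These sensors act through adaptors such as MAVS to activate IRF3 and IRF7, which switch on interferon genes. Secreted type I interferon binds the receptor made of IFNAR1 and IFNAR2, whose kinases JAK1 and TYK2 act on STAT2, which together with IRF9 is part of the transcription factor ISGF3. ISGF3 binds the interferon-stimulated response element in promoters and induces antiviral effectors, among them the IFIT, IFITM, OAS and MX families.

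DDX5 itself measured 170.5 FPKM in the control and 50.78 FPKM after knockdown, for a log2 ratio of -1.73. All log2 ratios given here are DDX5 shRNA over non-targeting shRNA on FPKM + 1, which understates differences of low genes, whereas folds given for single genes are ratios of the deposited FPKM. The steps between low FPKM values placed the depth at about 1.53e+07 and 1.55e+07 fragments, estimated from 128 and 122 short genes. The line's labelled identity was checked against fixed markers. VIM, a mesenchymal filament gene, stood at 1583.62 and 1270.59 FPKM, while the epithelial genes EPCAM (0.04 and 0.39 FPKM) and CDH1 (0.36 and 0.07 FPKM) were near 0, so the epithelial markers of a gastric adenocarcinoma were largely absent in both libraries. KRT8, an epithelial keratin, stood at 5.24 and 1.31 FPKM. KRT18, another keratin of the list, stood at 0.1 and 0.16 FPKM, and KRT19 had no row. CDH2, a mesenchymal cadherin, was near 0 as well, at 0.07 and 0 FPKM, and so did not go with VIM. Among 15 markers of other cells, 8 had a row, and the collagen genes COL1A1 (285.04 and 260.5 FPKM) and COL3A1 (482.44 and 943.99 FPKM) were the ones above 2 FPKM. Their part in any difference below was not tested. In bulk RNA, fewer cells of a kind and less RNA per cell cannot be told apart.

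None of the 50 members was 2-fold apart between the libraries on FPKM + 1. For the 19 members under 1 FPKM in both libraries this was fixed in advance, since such values cannot differ 2-fold on FPKM + 1. Of the 30 members with a mean of 1 FPKM or more, 0 were at least 2-fold higher in the knockdown library and 0 at least 2-fold lower, against 4.19% and 2.26% of all 11413 such genes. These shares are small enough that a count of 0 among 30 lies near the background, and it is not a result about the set. Log2 ratios ran from -0.79 (CMPK2) to 0.92 (IRF9). Of the 30, 22 were below 0 and 8 above, and the median was -0.23, whereas 47.8% of all genes were below 0 and their median was 0.024. After rescaling to an equal FPKM total, a change that moved the all-gene median by -0.10, 24 members were below 0 with a median of -0.32, beside 56.7% and -0.078 for all genes. The filter bears on this count, since 4 members (CMPK2, IFIT3, PARP9 and IFI44) passed it through their control value alone, being under 1 FPKM in the knockdown library, and none passed through the knockdown value alone. Among the 21 members with a mean of 5 FPKM or more, 13 were below 0 and the median was -0.095, beside 49.6% and 0.004 for all 8545 genes at that level.

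**Figure D1:**
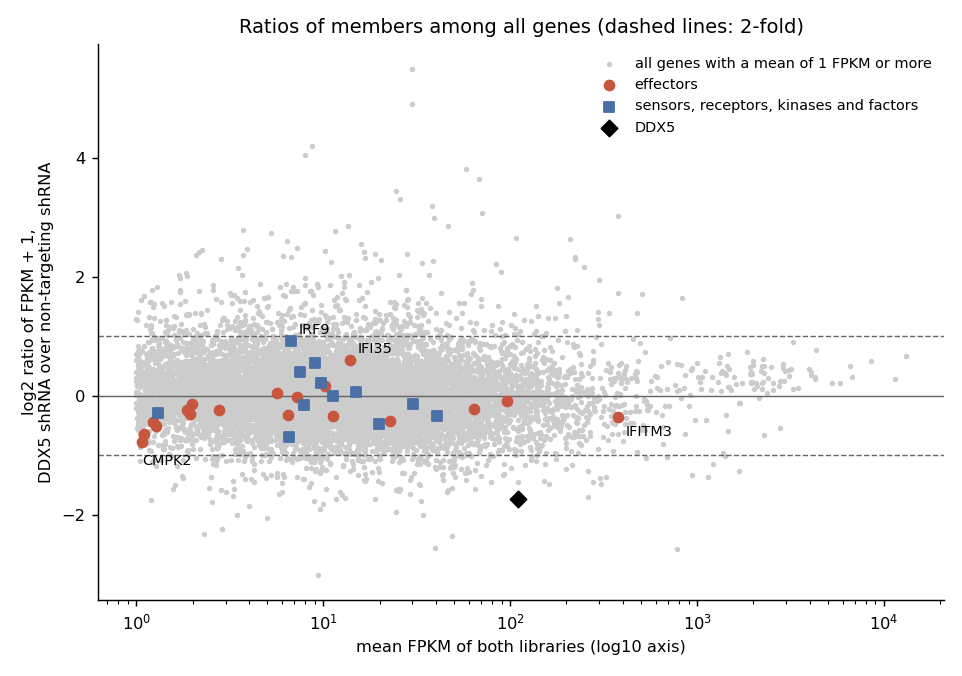
Log2 ratio of FPKM + 1 (DDX5 shRNA over non-targeting shRNA, vertical axis) against the mean FPKM of both libraries (log10 axis) for all 11413 genes averaging at least 1 FPKM, in grey. The 30 members (circles for effectors, squares for sensors and signalling genes) all lie between the dashed 2-fold lines, from -0.79 to 0.92, while DDX5 (diamond) lies at -1.73.

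At a 1.5-fold limit, 2 members were higher (IRF9 and IFI35) and 3 lower (CMPK2, IFNAR2 and IFIT3), beside 13.0% and 10.1% of all genes. Because FPKM + 1 compresses low values, ratios of the deposited FPKM were also taken for the 34 members with a mean of 0.5 FPKM or more. On that scale 5 members were at least 2-fold lower (SAMD9, OAS3, CMPK2, IFIT3 and IFIT1) and 1 at least 2-fold higher (IRF9), beside 4.02% and 7.78% of all 12126 genes at that level. Of the 5, SAMD9, OAS3 and IFIT1 reached that mean through their control value alone, so their direction was fixed by the filter. The 5 lower members were all weakly expressed effectors, each worth about 20 to 28 fragments in the knockdown library. Both of these limits were chosen after the values were seen.

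RIGI, DHX58 and TLR3 were weakly expressed in either library, while the adaptors MAVS and STING1 were higher. RIGI, which detects short double-stranded RNA with a triphosphate end, stood at 0.45 FPKM in the control library and 0.5 FPKM in the knockdown library, worth about 29 and 33 fragments. DHX58, the related helicase LGP2 without a signalling domain, stood at 0.14 FPKM and was listed at 0 in the knockdown library. TLR3, the endosomal sensor of double-stranded RNA, stood at 1.53 and 1.07 FPKM. These 3 RNA sensors were thus all under 2 FPKM. MAVS, the mitochondrial adaptor of RIG-I and MDA5, stood at 11.32 and 11.23 FPKM, the closest agreement of both libraries among the sensors and adaptors above 1 FPKM. STING1, the adaptor of cytosolic DNA sensing, stood at 8.92 and 10.55 FPKM. ZBP1, a sensor of Z-form nucleic acid, was listed at 0 and 0.07 FPKM, about 2 fragments. ADAR, which edits adenosine in double-stranded RNA and thereby hides cellular RNA from MDA5, was the most abundant of the group at 45.4 and 35.48 FPKM, with a log2 ratio of -0.35.

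Of 22 interferon genes sought, only IFNW1 had a row, listed at 0 in the control library and at 0.06 FPKM in the knockdown library. The other 21, IFNB1 and the IFNA and IFNL genes among them, are not analysed here. Apart from IFNW1, no interferon transcript level can therefore be set beside the effectors.

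Receptor and signalling genes spread in both directions, from a log2 ratio of -0.69 up to 0.92. IFNAR1, a receptor chain, stood at 7.11 FPKM in the control library and 10.91 FPKM in the knockdown library, 1.53-fold higher. IFNAR2, its partner, stood at 8.33 and 4.78 FPKM, 1.74-fold lower. Both receptor chains thus differed in opposite directions, with log2 ratios of 0.55 and -0.69 as deposited and of 0.45 and -0.79 at the same total. For IFNAR2, 43.6% of 50-base stretches along its transcript are also found in transcripts of another annotated gene model, which makes its level uncertain. The kinase genes lay close together in both libraries, with JAK1 at 14.64 and 15.42 FPKM and TYK2 at 31.66 and 28.71 FPKM. JAK1 had a log2 ratio of 0.07 as deposited and of -0.038 at the same total, so its direction depends on the scaling.

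The ISGF3 members of the set, IRF9 and STAT2, were both higher in the knockdown library. IRF9, its DNA-binding subunit, stood at 4.33 and 9.06 FPKM, the highest ratio of all 50 members at 0.92 (0.82 at the same total), from about 112 and 237 fragments. All windows of its transcript (100%) also occur in an overlapping annotated model, AL136295.5. STAT2 stood at 6.34 and 8.72 FPKM, 1.38-fold higher. Its log2 ratio was 0.41, and 0.30 at the same total.

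Among the other interferon regulatory factors, IRF3 and IRF2 were lower in the knockdown library by less than 1.5-fold. IRF3, the constitutive factor that sensors activate, stood at 23.4 and 16.53 FPKM, with a log2 ratio of -0.48. IRF2, which competes with IRF1 for promoters, stood at 8.37 and 7.44 FPKM. IRF7, the inducible factor that amplifies interferon production, was listed at 0 and 0.04 FPKM, about 1 fragment in the knockdown library. Of the 8 receptor and signalling members past the filter, 4 were above 0 and 4 below.

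**Figure D2:**
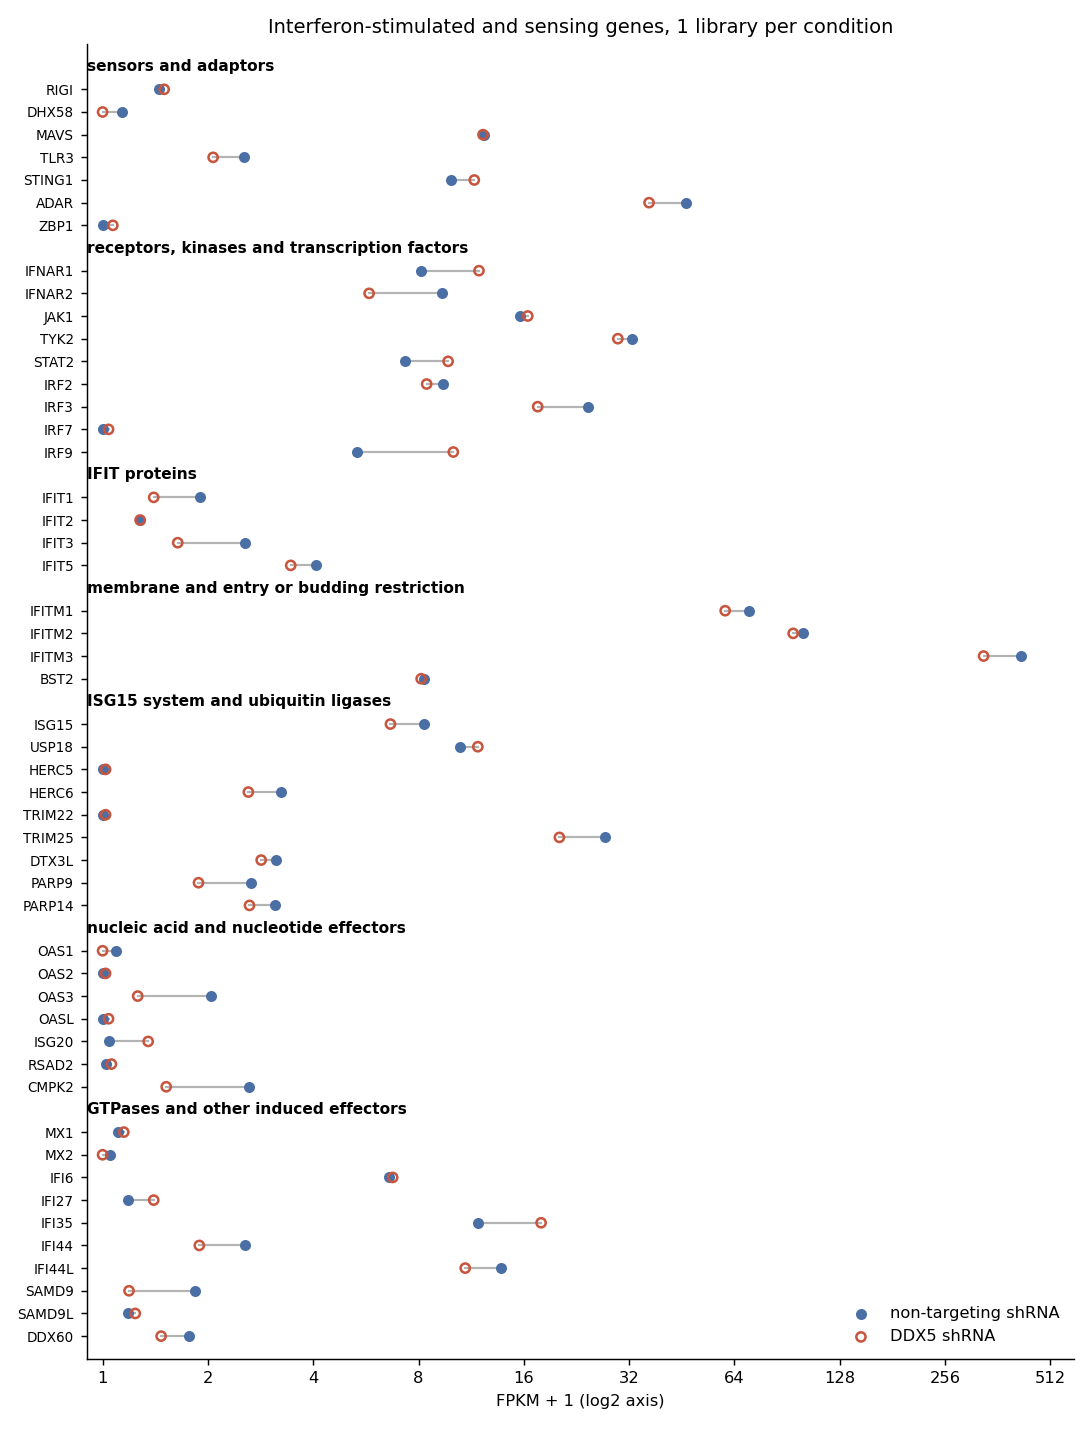
FPKM + 1 (log2 axis) of each of the 50 members in the control library (filled circles) and the knockdown library (open circles), 1 library each, grouped by role. Levels run from 0 to 422.27 FPKM (IFITM3), 19 members lie under 1 FPKM in both libraries, and the open circle lies left of the filled one in most effectors above 1 FPKM.

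Of 34 effectors with a row, 18 passed the filter and 15 were under 1 FPKM in both libraries. Across the whole set that was true of 19 of 50 members, 9 of which were listed at 0 in 1 library, and 13 members were worth at most 10 fragments in either library. Of the 18 effectors past the filter, 15 had a ratio below 0 (16 at the same total), with a median of -0.28, beside 47.8% of all genes (56.7% at the same total). CMPK2, IFIT3, PARP9 and IFI44 are among the 15 and had to be below 0, having passed through their control value alone. The other effectors below 0 were not forced by the filter. With 1 library per group, the count describes these libraries and supports no direction for effectors after knockdown.

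The IFITM genes, whose small membrane proteins block fusion of enveloped viruses, were the most abundant. IFITM3 stood at 422.27 FPKM in the control library and 328.91 FPKM in the knockdown library. IFITM2 stood at 99.61 and 93.2 FPKM. IFITM1 stood at 69.24 and 59.22 FPKM. The order IFITM3, IFITM2, IFITM1 was the same in both libraries, and all 3 were lower in the knockdown library, by at most 1.28-fold. These paralogs share sequence, with 40.7% of the 50-base windows of IFITM1, 16.5% of IFITM2 and 19.7% of IFITM3 found in other genes, so their division is uncertain. BST2, or tetherin, which holds budding virions at the cell surface, stood at 7.28 and 7.14 FPKM.

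IFIT genes, among them IFIT1, whose protein binds viral RNA ends that lack the cellular cap methylation, were low. IFIT5 was the highest at 3.07 and 2.45 FPKM. IFIT3 stood at 1.56 and 0.64 FPKM, worth about 56 and 23 fragments, 2.44-fold lower in the knockdown library. IFIT1 stood at 0.9 and 0.4 FPKM, about 61 and 28 fragments, 2.25-fold lower. IFIT2 was at 0.28 FPKM in both. IFIT1 and IFIT3 had similar folds here, while IFIT2, worth about 15 fragments in each library, did not share them.

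Genes of the ISG15 system were expressed unevenly. ISG15, a ubiquitin-like modifier, stood at 7.3 and 5.65 FPKM. USP18, which removes ISG15 and restrains IFNAR2 signalling, stood at 9.5 and 10.82 FPKM, and 23.1% of its windows also occur in other genes, most often its copy USP41. HERC5, the main ISG15 ligase in human cells, was listed at 0 and 0.02 FPKM, about 1 fragment. Modifier and protease were thus present, and the ligase transcript was at the limit of detection. HERC6, a related gene, stood at 2.24 and 1.61 FPKM. TRIM25, a ubiquitin ligase that acts on RIG-I, stood at 26.28 and 19.22 FPKM, with a log2 ratio of -0.43. TRIM22, an antiviral TRIM protein, was listed at 0 and 0.02 FPKM. PARP9 and DTX3L, which form an ADP-ribosyltransferase and ubiquitin ligase complex, stood at 1.66 and 0.88 FPKM and at 2.14 and 1.84 FPKM. PARP14 stood at 2.12 and 1.63 FPKM. Of the 7 members of this group past the filter, 6 were below 0, with ratios no lower than -0.50, beside 47.8% of all genes below 0, and USP18 was the exception. PARP9 is among the 6 and had to be below 0, having passed through its control value alone.

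Enzymes that act on viral RNA or nucleotides were near the detection limit except for OAS3 and CMPK2. OAS proteins make 2-5A, the activator of RNase L. OAS3 stood at 1.04 and 0.26 FPKM, about 105 and 26 fragments, 4-fold lower in the knockdown library. OAS1 (0.09 and 0 FPKM), OAS2 (0 and 0.02 FPKM) and OASL (0 and 0.04 FPKM) were each worth at most 3 fragments. CMPK2, a mitochondrial nucleotide kinase, stood at 1.62 and 0.52 FPKM, about 68 and 22 fragments, 3.12-fold lower. RSAD2, which encodes viperin, the maker of a chain-terminating nucleotide, stood at 0.02 and 0.06 FPKM, about 1 and 3 fragments. ISG20, an exonuclease, stood at 0.04 and 0.35 FPKM, about 1 and 9 fragments, too few for a fold.

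The remaining effectors ranged from a few fragments to above 10 FPKM. MX1 and MX2, dynamin-like GTPases that trap viral nucleocapsids, stood at 0.11 and 0.15 FPKM and at 0.05 and 0 FPKM, at most about 8 fragments each. IFI35 stood at 10.82 and 16.93 FPKM, 1.56-fold higher, the highest ratio among effectors at 0.60 (0.49 at the same total). IFI44L stood at 12.73 and 9.88 FPKM, while its neighbour and relative IFI44 stood at 1.56 and 0.89 FPKM. IFI6 stood at 5.57 and 5.75 FPKM, with a log2 ratio of 0.039 as deposited and of -0.059 at the same total. IFI27, often among the most strongly induced interferon-stimulated genes, was at 0.18 and 0.4 FPKM, about 2 and 4 fragments. SAMD9, an antiviral factor that represses translation, stood at 0.84 and 0.19 FPKM, about 86 and 20 fragments, 4.42-fold lower, whereas its paralog SAMD9L stood at 0.18 and 0.24 FPKM. DDX60, a helicase linked to RIG-I signalling, stood at 0.77 and 0.47 FPKM, about 70 and 43 fragments.

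**Figure D3:**
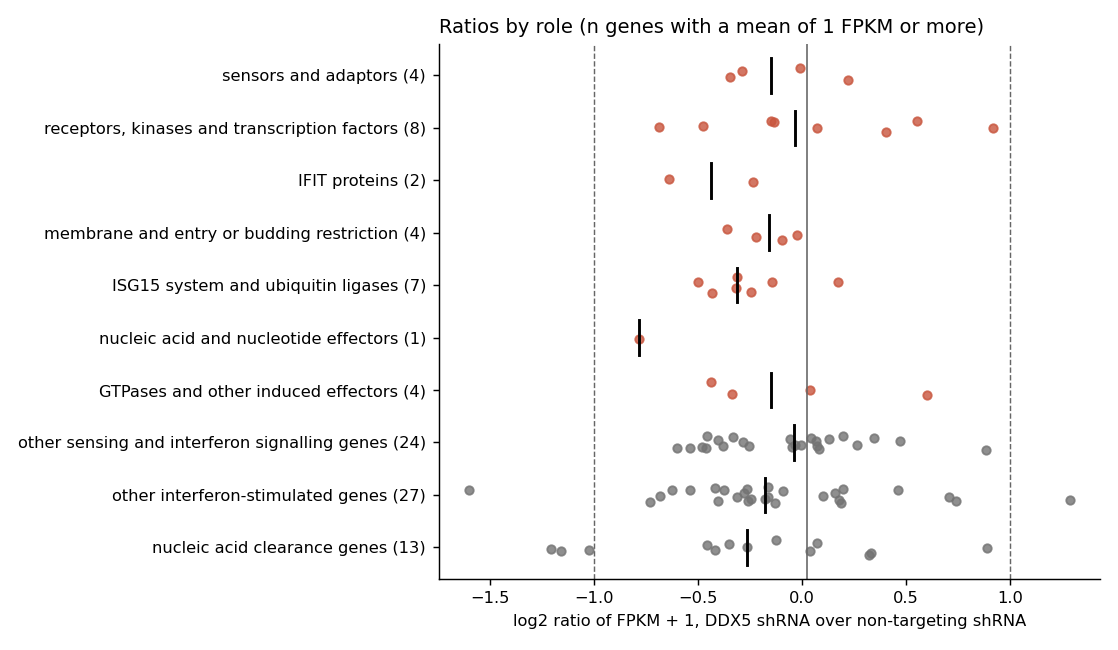
Log2 ratio of FPKM + 1 (DDX5 shRNA over non-targeting shRNA) of each gene averaging at least 1 FPKM, by role, with black bars at list medians, a solid line at the median of all genes (0.024) and dashed lines at 2-fold. Members are in red and other genes of the pathway in grey, and genes past 2-fold (SLFN5, APOBEC3B, DHX9, BANF1 and RNASET2) are all in the grey lists.

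Promoter windows were examined for the interferon-stimulated response element, since most effectors are known targets of ISGF3. Its core was searched as GAAA, any 2 bases and GAAA again, on both strands, in RefSeq windows of 300 bases (250 before to 50 after a start, build GRCh38.p14). Of 39 members with a window, 23 (59.0%) held the core in at least 1 window, beside 4.38% of all 27305 genes with a window, and 27 of 55 member windows held it, beside 3.57% of all 35116 windows. A match is a description of letters, and the table lacks windows for the other members. The 6 promoters below are shown because they cover high, middle and low levels among members past or near the filter, and because DTX3L lies head to head with PARP9. Members with the core and a row that were lower still in mean FPKM (HERC5, RSAD2, MX1, ISG20, IFI27, SAMD9 and DDX60) are not shown. BST2 was chosen as the member with the core nearest to a ratio of 0, and the others after their values were seen. Capitals mark the core or, where they begin with TTTC, the core on the opposite strand, and each sequence runs 5′ to 3′ on the gene's strand.
IFITM3, chr11:320811-321110, minus strand: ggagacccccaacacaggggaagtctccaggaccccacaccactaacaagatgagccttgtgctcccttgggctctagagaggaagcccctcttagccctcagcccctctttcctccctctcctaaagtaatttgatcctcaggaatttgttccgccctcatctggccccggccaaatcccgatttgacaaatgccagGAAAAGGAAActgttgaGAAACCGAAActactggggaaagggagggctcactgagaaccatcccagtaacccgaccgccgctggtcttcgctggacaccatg
BST2, chr19:17405581-17405880, minus strand: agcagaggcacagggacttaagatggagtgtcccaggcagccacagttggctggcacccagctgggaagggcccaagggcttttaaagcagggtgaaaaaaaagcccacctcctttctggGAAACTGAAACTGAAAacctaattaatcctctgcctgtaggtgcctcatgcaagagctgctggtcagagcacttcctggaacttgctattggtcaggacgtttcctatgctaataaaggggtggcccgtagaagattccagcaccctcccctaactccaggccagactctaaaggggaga
ISG15, chr1:1013247-1013546, plus strand: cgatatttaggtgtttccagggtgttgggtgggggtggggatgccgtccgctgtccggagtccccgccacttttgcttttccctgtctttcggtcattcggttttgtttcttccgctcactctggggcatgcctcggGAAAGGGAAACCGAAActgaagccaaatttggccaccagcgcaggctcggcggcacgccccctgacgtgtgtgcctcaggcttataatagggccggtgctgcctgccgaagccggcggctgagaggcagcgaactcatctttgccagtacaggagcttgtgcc
IFIT1, chr10:89392373-89392672, plus strand: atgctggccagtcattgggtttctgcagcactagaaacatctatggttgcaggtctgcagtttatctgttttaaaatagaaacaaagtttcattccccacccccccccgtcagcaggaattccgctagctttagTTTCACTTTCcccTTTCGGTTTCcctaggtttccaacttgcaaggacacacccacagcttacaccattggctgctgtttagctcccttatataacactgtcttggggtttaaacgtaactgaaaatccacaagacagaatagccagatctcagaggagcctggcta
OAS3, chr12:112938224-112938523, plus strand: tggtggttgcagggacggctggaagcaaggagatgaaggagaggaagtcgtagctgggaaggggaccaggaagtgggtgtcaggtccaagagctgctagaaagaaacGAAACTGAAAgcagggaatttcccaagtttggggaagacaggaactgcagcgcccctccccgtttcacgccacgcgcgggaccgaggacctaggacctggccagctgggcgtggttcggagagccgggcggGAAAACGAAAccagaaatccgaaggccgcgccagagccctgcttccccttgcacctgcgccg
DTX3L, chr3:122564088-122564387, plus strand: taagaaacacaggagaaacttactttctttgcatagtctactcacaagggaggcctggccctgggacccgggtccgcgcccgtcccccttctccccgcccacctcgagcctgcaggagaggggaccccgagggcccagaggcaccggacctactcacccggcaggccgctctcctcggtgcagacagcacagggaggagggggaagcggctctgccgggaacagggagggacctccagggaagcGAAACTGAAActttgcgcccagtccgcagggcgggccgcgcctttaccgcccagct
Members that hold the core were found at very different levels. IFITM3, with matches that begin at -52 and -35 from the start, stood at 422.27 and 328.91 FPKM. IFIT1, with matches that begin at -116 and -103, stood at 0.9 and 0.4 FPKM. In BST2 and ISG15 the 2 matches overlap. In DTX3L the match begins at -6, and the same letters lie in the PARP9 window on the opposite strand.

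Members with the core were mostly below 0. Of 13 such members past the filter, 12 had a log2 ratio below 0 (13 at the same total) and the median was -0.29, with IFI6 the exception at 0.039. IFIT3, PARP9 and IFI44 are among the 12 and had to be below 0, having passed the filter through their control value alone. Of 11 members past the filter whose windows lack the core, 6 were below 0 and the median was -0.011, and IRF9, IFI35, IFNAR1 and STAT2 are among the 5 above 0. CMPK2 is among the 6 and also had to be below 0, having passed through its control value alone. The windows of CMPK2, TRIM25 and IFI35 hold GAAA repeats spaced more closely than the searched core, which were not counted. Of the genes outside the set that hold the core, 154 of 332 were below 0 (46.4%), with a median of 0.053. The difference between members with and without the core was not tested. The members with the core were also less abundant, with a median of 3.07 FPKM in the control library beside 10.8 FPKM for those without. Roles differed too: MAVS, ADAR, IFNAR1, JAK1, TYK2, STAT2 and IRF9 lack the core. TLR3 was the only sensor or signalling gene past the filter and with a window that holds it. STING1, IFNAR2, IRF2 and IRF3 passed the filter but have no window, so they were not searched. The parts of level and role in this difference were not tested.

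**Figure D4:**
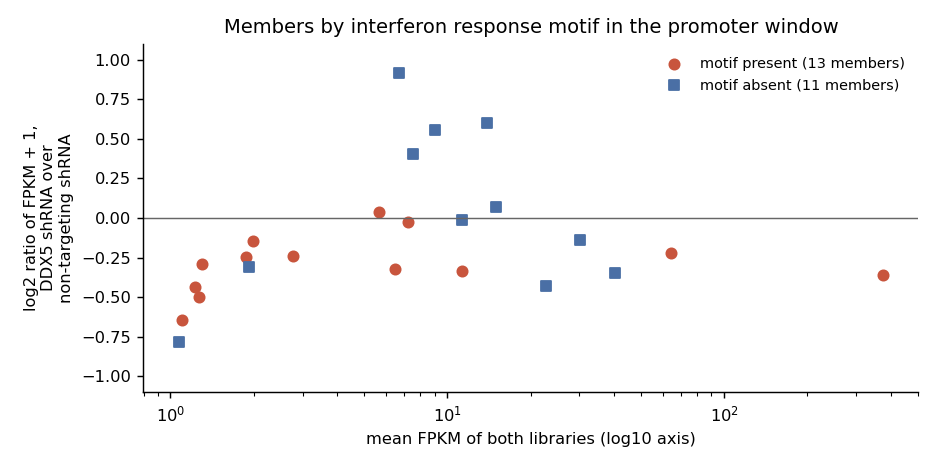
Log2 ratio of FPKM + 1 (DDX5 shRNA over non-targeting shRNA) against the mean FPKM of both libraries (log10 axis) for the 24 members with a promoter window and a mean of 1 FPKM or more. Of the 13 with the core (circles) 12 lie below 0, and of the 11 without it (squares) 6 do.

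Other genes of the pathway were taken from lists written beside the members. Among other sensing and interferon signalling genes, 31 of 33 had a row, and of the 24 past the filter 0 were at least 2-fold apart, 14 were below 0 and the median was -0.04. Of all genes past the filter, 4.19% were at least 2-fold higher and 2.26% lower, 47.8% were below 0 and the median was 0.024. The count of 0 thus lies near the background. IFNGR1, a chain of the interferon gamma receptor, led at 18.32 and 34.64 FPKM, 1.89-fold higher. TRAF3, a ligase that links MAVS to TBK1, stood at 10.9 and 6.83 FPKM. EIF2AK2, the kinase PKR that double-stranded RNA activates, stood at 22.44 and 15.14 FPKM, with a log2 ratio of -0.54.

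Among other interferon-stimulated genes, 41 of 47 had a row and 27 passed the filter. Of these 27, 18 were below 0, with a median of -0.18, beside 47.8% and 0.024 for all genes. At least 2-fold higher was 1 gene and at least 2-fold lower 1 gene, SLFN5 and APOBEC3B, near the 4.19% and 2.26% of all genes. SLFN5, a Schlafen family gene, stood at 3.03 and 8.85 FPKM, with a log2 ratio of 1.29. APOBEC3B, a cytidine deaminase of single-stranded DNA, stood at 38.77 and 12.09 FPKM, with a log2 ratio of -1.60, and 39.4% of its windows also occur in other genes, most often APOBEC3A. APOBEC3F (1.76 and 3.61 FPKM), ZC3HAV1, which encodes the CpG-binding protein ZAP (18.62 and 10.81 FPKM), and NMI (3.92 and 7.02 FPKM) came next. For APOBEC3F, 23.4% of windows also occur in other genes, most often APOBEC3G, which had no row, so its level is uncertain. NMI, a binding partner of IFI35, was 1.79-fold higher, beside 1.56-fold for IFI35 itself.

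Of the genes that clear or shield cellular nucleic acid, all 14 had a row, and of the 13 past the filter 3 were at least 2-fold lower and none higher, beside 2.26% and 4.19% of all genes. DHX9, a helicase that unwinds double-stranded RNA, stood at 141.06 and 60.4 FPKM. BANF1, which coats DNA and competes with cGAS for it, stood at 166.74 and 74.01 FPKM. RNASET2, a lysosomal ribonuclease, stood at 7.42 and 3.14 FPKM, with 26.3% of its windows found in other genes. DNASE2, the lysosomal DNase, went the other way at 38.55 and 72.16 FPKM. SUPV3L1 and PNPT1, which degrade mitochondrial RNA, stood at 32.7 and 23.57 FPKM and at 34.37 and 25.42 FPKM.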

How the data were processed

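RNA from HGC-27 cells with a non-targeting shRNA or a DDX5 shRNA was sequenced, 1 library per group. The authors deposited 1 table of FPKM, 1 column per library, per the file headers. RSEM 1.2.8, Bowtie2, HISAT and build hg19 are named, with no roles, per the submitters' processing notes. Not given in the sources used here are strand, annotation and filters. RSEM assigns shared reads by estimation, so values of paralogs can trade off.

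Columns were assigned by sample title, and gene numbers were matched to RefSeq names (GRCh38.p14; 15289 of 16021 rows matched, 701 were BGI_novel models). Because the builds differ, coordinates are given for promoter windows only. Log2 ratios used a pseudocount of 1 FPKM, and genes averaging at least 1 FPKM entered counts and medians. Fragment numbers are approximate: depth was taken from FPKM steps of short genes with 1 annotated transcript (64.8% within 0.15 of a whole step in each library, at the best-fitting step), with GENCODE v29 transcript lengths shortened by 150 bases. Shared sequence is the share, in percent, of 50-base stretches (1 every 10 bases) found in transcripts of another gene. Python 3.11.15, numpy 2.4.6, pandas 2.3.3 and matplotlib 3.10.9 were used, and the procedure was tested on simulated data.

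The members, the gene lists and the limits were chosen with earlier results of these data known. Every member could be named. Of the other lists, genes at least 2-fold apart and up to 3 more with the largest ratios are named. Alternatives were pseudocounts of 0.1 and 5 FPKM, no filter, a mean of 5 FPKM, median centring and rescaling to an equal total. Limits of 1.5-fold and of 2-fold on the deposited FPKM were added after the data were seen.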

Additional observations from a re-analysis of the deposited data

How the results depend on the processing

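At 2-fold on FPKM plus a pseudocount, no setting but the lower pseudocount put a member past 2-fold. With a pseudocount of 0.1 FPKM, of the 30 members past the filter 1 (IRF9) was at least 2-fold higher and 2 (CMPK2 and IFIT3) at least 2-fold lower, and of all 50 members 8 were 2-fold apart. CMPK2 and IFIT3 passed the filter through their control value alone, and the 8 include DHX58 and ISG20, worth at most 10 fragments in either library. The share of all genes was not computed at this pseudocount, so these counts are not a result about the set. At 1.5-fold the counts higher and lower were 2 and 3, and at 2-fold on the deposited FPKM 1 and 5. The median log2 ratio of members, -0.23, was -0.11 with a pseudocount of 5 FPKM, -0.11 with no filter, -0.095 at a mean of 5 FPKM or more and -0.322 at the same total, and stayed below 0 in all settings. With no filter, 20 of 50 members were above 0. That count takes in 19 members under 1 FPKM in both libraries, 9 of them listed at 0 in 1 library. For all genes, neither the share above 0 with no filter nor the medians with no filter and with a pseudocount of 5 FPKM were computed. The member values at these settings are therefore not a result about the set. A lower pseudocount weights low genes more, and a higher one less. At the same total, IFI6, IFIT2 and JAK1 changed sign among the 50 members. No paired analysis was possible because each group has 1 library, and for the same reason no replicate could be left out. Depth limits the 13 members worth at most 10 fragments: differences between their values were not detectable at this depth.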
